A study of Mus musculus with 4 samples.

Results

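Back skin of 10-day-old mice was compared between the litters from which the animals came, as litter 2 minus litter 1 with genotype balanced. The comparison used all 4 arrays of the series, 2 from each litter. A total of 15102 autosomal genes, or genes without a position, could be compared, and 10217 of them (67.7%) differed in the same direction in control and in knockout skin. A smaller set of 54 genes differed at least 2-fold the same way in both genotypes and is described in most detail.

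The study asked how deletion of ADAM17 in keratinocytes changes the skin. The knockout animals (cKO) were Adam17 flox/flox and carried Cre recombinase driven by the keratin 14 promoter (Krt14-Cre), which is active in basal keratinocytes. The controls were their littermates without Krt14-Cre. One parent of the cross was Adam17 flox/flox and the other Adam17 flox/+, so every control carried at least 1 floxed allele, and whether it carried a second is not settled by the labels. The strain background of all animals mixed 129Sv with C57BL/6. Each litter gave 1 control and 1 cKO biopsy, so the litter contrast compares litter 2 control with litter 1 control and litter 2 cKO with litter 1 cKO. Parents, day of sampling, growth and segregating 129Sv or C57BL/6 alleles therefore cannot be told apart here. The sources used here give no sampling date, and both litters were hybridised on 1 slide with 1 scan time, on which the arrays of a litter were neighbours.

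Littermates share their parents and their nursing conditions, and on a mixed strain background they also share many chromosome segments that other litters lack. Back skin at this age is a tissue in rapid change, with growing hair follicles, a dermis in which fibroblasts lay down collagen, and resident mast cells and macrophages. Gene families that differ in copy number or sequence between strains can give large array differences of a few probes, whereas shifts of a tissue compartment move many of its genes by smaller steps.

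Values are log2 signals relative to the 75th percentile of the array, so that 0 is a brightly expressed gene and values near -6 to -7 are those of probes without signal above background. Between 53.7% and 56.6% of gene spots were well above background, and 0 were saturated. Of 60 marker genes of skin cell types, 57 were well above background on all 4 arrays, the exceptions being Tyr, Ngp and Elane. Adam17 read 0.44 and 0.37 in the controls of litters 1 and 2 and -0.14 and -0.12 in the cKO animals. Its litter difference was -0.03, with both animals of a genotype close together. Whether its probe lies inside the floxed part was not determined. The sexes of the animals were not balanced. Xist, the RNA of the inactive X chromosome, read 2.37 in litter 2 cKO and between -6.81 and -6.55 on the other 3 arrays. The Y-linked genes Ddx3y, Eif2s3y and Kdm5d were well above background on those 3 arrays and not in litter 2 cKO. The control pair thus matches in sex and the cKO pair does not, and the part of sex in the autosomal differences of the cKO pair was not tested.

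A family of predicted genes at the start of chromosome 14 held genes that were far apart between the litters in both genotypes. Of the 21 genes at least 2-fold higher in litter 2 in both genotypes, 10 belonged to it, but 6 of these had no signal well above background in litter 1 and passed the filter only because they were high in litter 2. With such a signal asked for on all 4 arrays, 4 of 9 belonged to it. One of its probes is annotated as Alpha14-takusan. The takusan genes are a rodent family of many similar copies on this chromosome, known from work on synapses. The sequences of 6 probes of the family are given here because they show stretches that its probes share. They are 60 bases long, written 5′ to 3′ as in the array files, with coordinates of those files in mouse build mm9. Capitals mark stretches of at least 18 bases that occur without a mismatch in another probe of the family or the region. Those of the first Gm3696 probe occur only in the second probe of the same gene.
Gm5797, minus strand, chr14:8162859-8163874: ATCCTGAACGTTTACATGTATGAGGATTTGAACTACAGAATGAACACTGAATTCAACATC
Gm5458, minus strand, chr14:20419731-20420748: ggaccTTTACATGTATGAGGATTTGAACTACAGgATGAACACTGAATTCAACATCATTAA
NAP102624-1, minus strand, chr14:7452150-7453898: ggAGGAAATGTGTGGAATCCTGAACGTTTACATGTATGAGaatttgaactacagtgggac
ENSMUST00000112728, plus strand, chr14:6963851-6963910: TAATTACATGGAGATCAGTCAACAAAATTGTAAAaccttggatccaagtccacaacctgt
Gm3696, first probe, minus strand, chr14:7838593-7838616: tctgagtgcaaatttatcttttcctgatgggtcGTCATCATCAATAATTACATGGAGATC
Gm3696, second probe, minus strand, chr14:7839402-7839461: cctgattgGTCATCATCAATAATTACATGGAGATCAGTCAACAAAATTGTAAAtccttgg

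The region held 27 probes, the first starting at base 3225325 and the last ending at base 8624810 of chromosome 14, and 1 further probe, that of Gm5458, was added because it shares sequence with them. In all, 12 of the 28 probes shared such a stretch with another. The first Gm3696 probe and the overlapping probes of 4930555G01Rik shared it only within their own gene. Near-identical copies cannot be separated by probes that share sequence between genes, so a value may sum several genes. A total of 12 probes of 10 genes passed the filter, which asked for a signal well above background in both animals of a litter, in either litter or both. Of these, 8 passed only through litter 2 and so had to be higher there, while 4 probes (of Gm3020, Gm2974, BF149456 and Gm3696) were well above background on all 4 arrays. The other 16 probes were not well above background on any array, so their litter difference could not be measured.

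BF149456, a transcript named from a spermatid cDNA clone, read -4.38 in control and -4.05 in cKO skin of litter 1, against 0.02 and -0.09 in litter 2. The groups lay far apart and the littermates close together. The difference was 4.18 ± 0.14 (SE), or 18.1-fold (adjusted p = 0.166, limma). Gm3696 read -3.65 and -3.43 in litter 1 and -0.96 and -1.05 in litter 2 with its first probe, and the difference was 2.54 with that probe and 2.73 with the other. Gm2974 read -3.65 and -3.19 in litter 1 and -0.84 and -1.40 in litter 2. Gm3020, annotated as a non-coding RNA, read -4.45 and -3.96 in litter 1 and -1.76 and -1.84 in litter 2. For each of these 4 genes, measured in both litters, both animals of litter 2 were above both animals of litter 1. How many of all genes tested had such a separation was not counted.

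Members whose litter 1 signal was not well above background have only a lower limit of the difference. The litter 2 mean is set against a floor on each litter 1 array, which is the dimmest detected signal there or the probe's own signal if that is higher. In the processed signal, ENSMUST00000112728 was at least 6.94-fold higher in litter 2, and Gm5458 at least 4.68-fold. Gm5797, NAP102624-1, 4930555G01Rik and ENSMUST00000112797 were at least 3.01-fold, 3.36-fold, 2.89-fold and 2.48-fold higher. These limits depend on the background treatment. With normexp, a model-based background correction, without spots below their local background, ENSMUST00000112728 and Gm5458 differed by less, at 1.61 and 1.2 (log2). Gm5797 read -3.24 and -3.30 in litter 2, and its litter 1 readings of -6.91 and -6.92 were at background, so no exact difference is given for it. Within a litter, members also differed between control and cKO skin. Gm2974 was higher by 0.46 in cKO than in control skin of litter 1 and lower in litter 2, where it differed by -0.56.

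**Figure D1:**
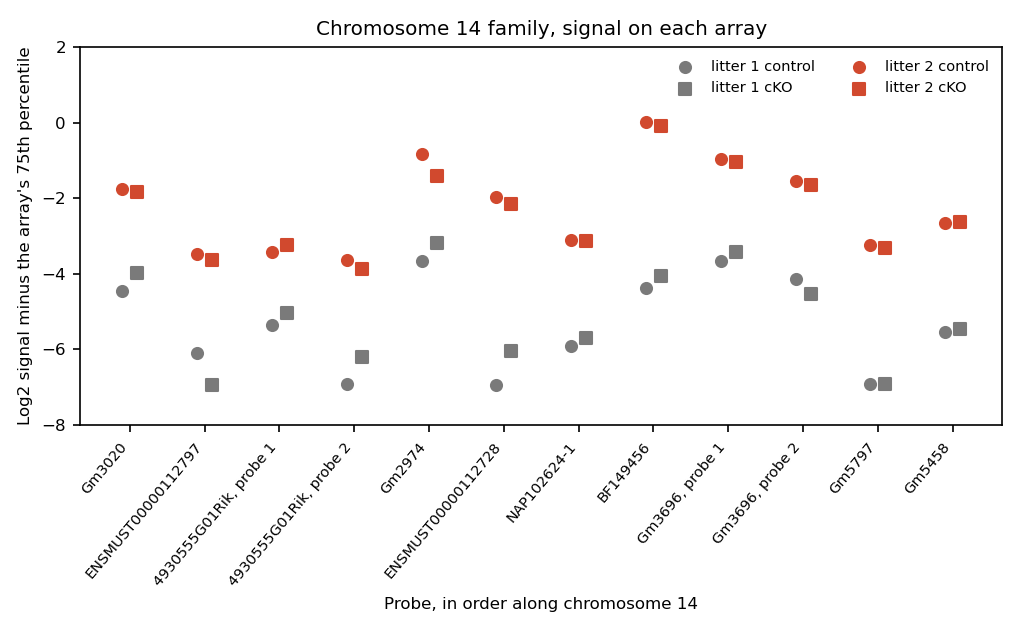
Log2 signal minus the array's 75th percentile (vertical axis) of the 12 probes of the chromosome 14 family that passed the filter, in order along the chromosome; each point is 1 array, grey for litter 1 and red for litter 2, circles for control and squares for cKO. At every probe both red points lie above both grey points, and 8 of the probes passed the filter only through litter 2.

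By limma, 0 genes (0%) passed an adjusted p of 0.05 between the litters. With 4 arrays and genotype in the model, 1 residual degree of freedom was left, to which the prior added 2.12. At an unadjusted p under 0.05 there were 2481 genes (16.4%), and the lowest adjusted p was 0.136. Without the genotype term 3 genes were called, and all belonged to the chromosome 14 family (Gm5797, Gm5458 and BF149456; lowest adjusted p = 0.0244), of which only BF149456 was well above background in litter 1. The count also rested on how the background was treated. With normexp, a model-based background correction, and without the 3 spots that lay below their local background, 195 genes were called by limma, 52 higher (0.344%) and 143 lower (0.947%) in litter 2. That setting was chosen after the data were seen.

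Across genes, the litter difference of the control pair correlated with that of the cKO pair at 0.423 (Pearson) and 0.441 (Spearman), a description over genes, which are not independent replicates; the pairs share no array. By any amount, 5545 genes (36.7%) were higher and 4672 (30.9%) lower in litter 2 in both genotypes. At least 2-fold apart in both were 21 genes higher (0.139%) and 33 lower (0.219%), and 2 genes passed 2-fold in both pairs in opposite directions. Of the 173 genes at least 2-fold apart in the control pair, 140 (80.9%) had the same sign in the cKO pair. Of the 54 genes, 24 were found when signal well above background was required on all 4 arrays (9 higher, 15 lower). Just inside the 2-fold limit lay Cd209d at -1.72 in the control pair and -1.02 in the cKO pair, and just outside it Cma2 at -0.9999 and -1.29.

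**Figure D2:**
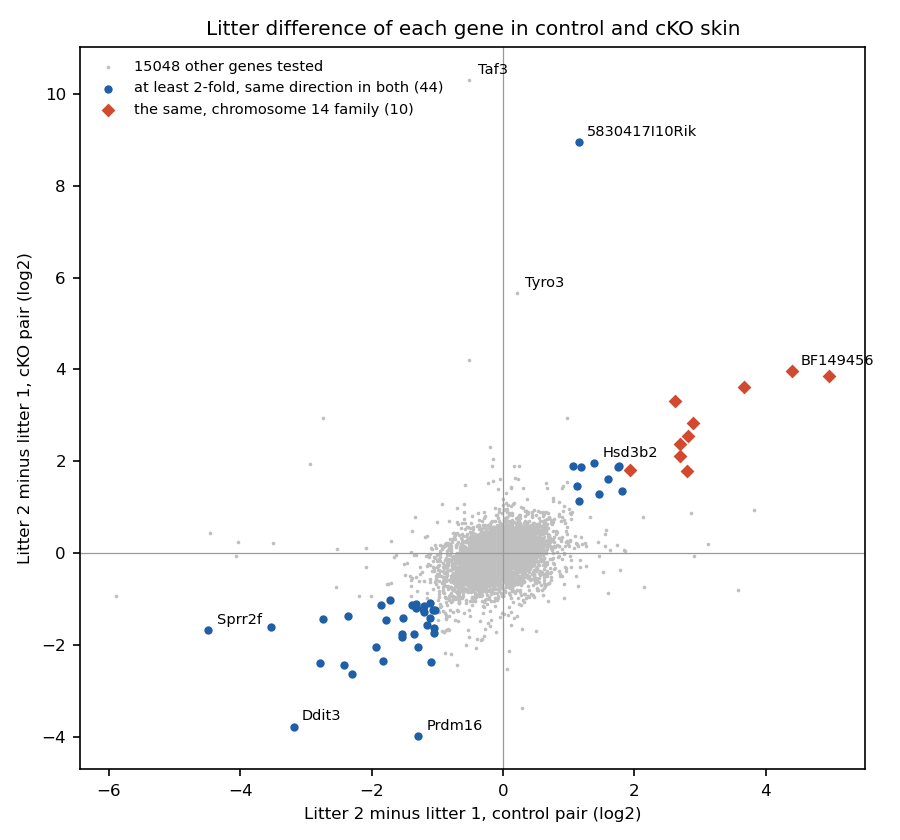
Litter 2 minus litter 1 on the log2 scale in the control pair (horizontal axis) and in the cKO pair (vertical axis), 1 point per gene; blue points and red diamonds are the 54 genes at least 2-fold apart in the same direction in both. The 10 red diamonds are the chromosome 14 family and lie above 1 on both axes; Taf3 and Tyro3 stand out in the cKO pair alone.

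The named genes that were higher in litter 2 had varied functions. Hsd3b2 and Hsd3b6 encode 3-beta-hydroxysteroid dehydrogenases, which convert steroid hormone precursors, and lie near each other on chromosome 3. Hsd3b2 read -1.44 in control and -3.98 in cKO skin of litter 1, and -0.06 and -2.01 in litter 2. Hsd3b6 read -4.04 and -6.09 in litter 1, and -2.45 and -4.46 in litter 2. Both genes were lower in cKO than in control skin in both litters, so that the litters overlap across genotypes while each genotype was higher in litter 2. The litter differences were 1.68 ± 0.18 and 1.61 ± 0.06 (SE; limma adjusted p = 0.209 and 0.166), and that of Hsd3b6 rests on 1 litter 1 array well above background, the cKO array being at background. No probe of the 3-beta-hydroxysteroid dehydrogenase genes on the array shared 18 bases with another.

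Ntn4, which encodes the basement membrane protein netrin 4, read -3.89 and -4.82 in litter 1 and -2.14 and -2.94 in litter 2 (difference 1.81 ± 0.07, SE; limma adjusted p = 0.166). Both litter 2 values exceeded both litter 1 values, of which 1 was not well above background. The share of all genes tested with such a separation was not counted. Cps1, the mitochondrial enzyme that feeds ammonia into the urea cycle, read -2.75 and -3.79 in litter 1 and -1.56 and -1.90 in litter 2. Wfdc18, a small secreted protein with a whey acidic protein domain, read 0.03 and 1.38 in litter 1 and 1.49 and 2.67 in litter 2, and its second probe gave a difference of 1.30. It was higher in cKO skin in both litters, and the lowest litter 2 value barely exceeded the highest of litter 1. Slc38a1, a glutamine transporter, was higher by 0.91 and 0.92 in the pairs, and its other probes gave 0.72 and 1.13. Fam219a and Sowahc, whose functions are poorly known, were higher by 0.98 each.

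Other named genes on the high side were dim. Sstr2, a somatostatin receptor, was at least 1.81-fold higher and Tgtp1, an interferon-induced GTPase, at least 1.98-fold higher in litter 2, as their litter 1 signal was not well above background. Rnf207, a ring finger gene, was at least 1.39-fold higher. These limits hold for the processed signal. Under normexp without the 3 spots below their local background, Sstr2, Tgtp1 and Rnf207 differed by less, at 0.39, 0.42 and 0.28. Mx2, another interferon-induced GTPase, read -4.90 and -4.21 in litter 1 and -4.0 and -2.79 in litter 2. It differed by 1.16 ± 0.16 (SE), and the lower litter 2 value lay just above the higher litter 1 value. Again 1 of the litter 1 arrays was not well above background. The interferon response list as a whole did not share this direction. Its median over 33 genes was -0.15 in the control pair and 0.31 in the cKO pair. Of the 33, 8 were higher and 4 lower in both, against 36.7% and 30.9% of all genes tested.

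Named genes that were lower in litter 2 included a stress-response factor, epidermal and antimicrobial proteins, and products of dermal fibroblasts. Ddit3, which encodes the stress-induced transcription factor CHOP, read -2.62 and -2.20 in litter 1 and -5.81 and -5.97 in litter 2. Both litter 2 values were not well above background, so in the processed signal the gene was at least 4.43-fold lower. The fitted difference of -3.48 ± 0.18 (SE, limma adjusted p = 0.209) rests on these background readings. Under normexp the difference was smaller than that limit, at -0.24 with all spots and -1.22 without the 3 spots below their local background. The rest of the ATF4 and unfolded protein response list did not follow it. Over its 31 genes the median was 0.05, with 14 higher and 8 lower in both genotypes, against 36.7% and 30.9% of all genes tested. Atf4 itself, the activator of the pathway, stood at 0.22 and 0.04 in the pairs, Trib3 at -0.17 and -0.29, and Aldh1l2, a mitochondrial folate enzyme, at -0.78 and -1.04.

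Sprr2f, a small proline-rich protein of the cornified envelope, read 1.06 and 1.97 in litter 1 and -3.43 and 0.30 in litter 2. The drop was 4.48 in the control pair against 1.67 in the cKO pair, so its size rested on litter 2 control skin. Among 11 small proline-rich genes the median was -0.26. In both genotypes 8 were lower and 1 higher, against 30.9% and 36.7% of all genes tested. Sprr2a1 stood at 0.31 and 0.40 while Sprr2h stood at -0.99 and -0.74. Leap2, an antimicrobial peptide gene that also opposes ghrelin, read -2.76 and -2.32 in litter 1 and -6.28 and -3.93 in litter 2, at least 3.33-fold lower. Prss41, a serine protease, was at least 1.92-fold lower. Under normexp without the 3 spots below their local background, Leap2 and Prss41 differed by less than these limits, at -0.80 and -0.32. Lingo3, a leucine-rich repeat membrane protein, read -0.71 and -1.16 in litter 1 and -3.46 and -2.58 in litter 2.

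Kera, which encodes keratocan, a proteoglycan of collagen fibrils, read -0.73 and -1.59 in litter 1 and -2.08 and -3.34 in litter 2. C1qtnf3, a secreted C1q-related protein, read -0.52 and -0.46 in litter 1 and -2.04 and -2.22 in litter 2. Both of its probes gave the drop, at -1.65 and -1.45. Ap1s3, an adaptor subunit of vesicle transport, read -0.74 and -0.64 in litter 1 and -1.93 and -1.77 in litter 2. In these genes, named for the size of their difference, every litter 2 value was below every litter 1 value. How many of all genes tested had such a separation was not counted. Abca6, a lipid transporter of the ABC family, was not well above background in litter 2, where the lower limit of its drop was only 1.01-fold. Olr1 (a receptor for oxidised lipoprotein), Idi2 (an isoprenoid isomerase) and Prdm16 (a regulator of brown fat and craniofacial development) had 1 of 2 litter 2 arrays well above background and differed by -1.66, -1.36 and -2.63. Under normexp with all spots, Leap2, Abca6, Prdm16, Olr1, Prss41 and Idi2 changed sign. There the 2131 genes with a mean level below -3 moved by a median of 1.54 in the cKO pair and 0.02 in the control pair. Without the 3 spots below their local background, all on the litter 2 cKO array, that median was 0.01 and all 6 kept the sign of the processed signal.

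**Figure D3:**
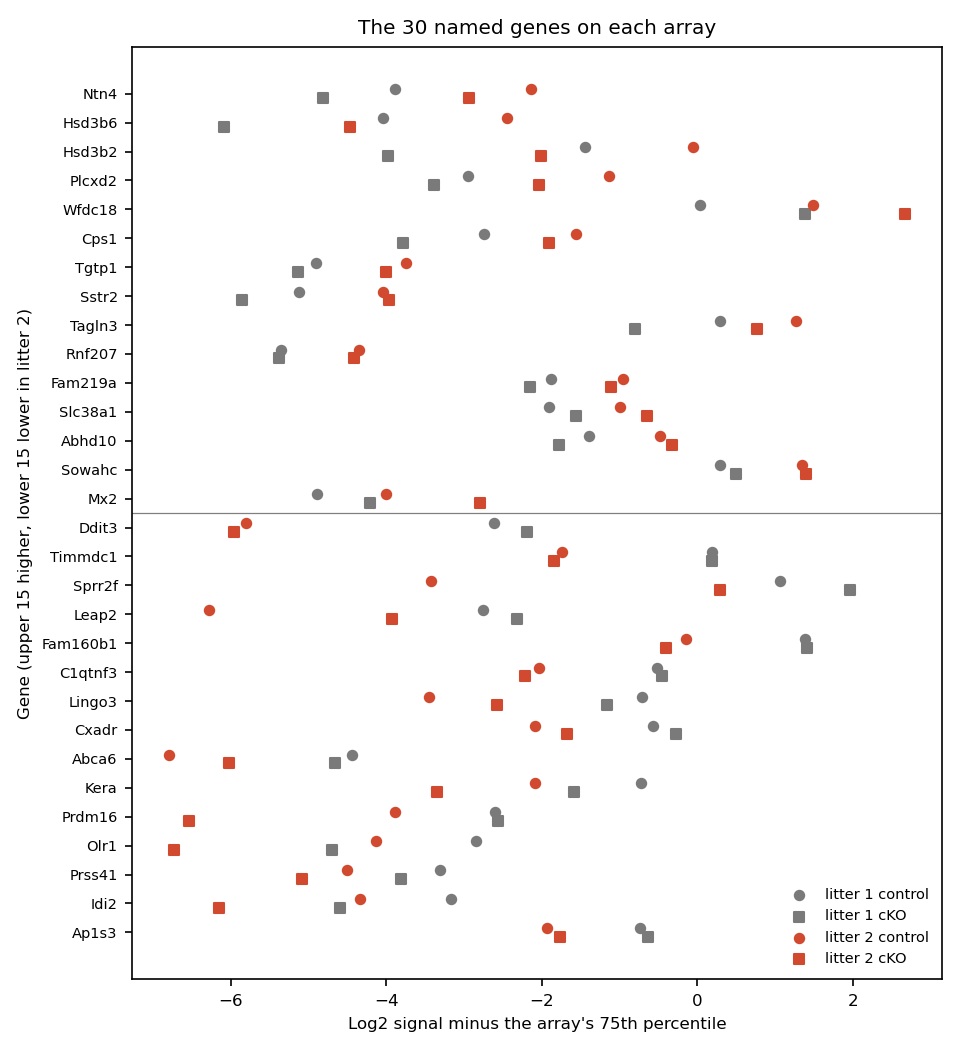
Log2 signal minus the array's 75th percentile (horizontal axis) of the 15 named genes with the largest shared difference higher in litter 2 (upper block) and lower in litter 2 (lower block); each point is 1 array, grey for litter 1 and red for litter 2, circles for control and squares for cKO. Within each genotype the red point lies right of the grey one in the upper block and left of it in the lower block, which the choice of genes fixes.

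Several genes were read differently by their own probes. Among the 49 genes at least 1.5-fold apart in both genotypes that had several passing probes, all other probes had the same sign in 41 (83.7%), against 59.6% of all 5031 genes with several probes. Plcxd2, a phospholipase C-like gene, was among those whose passing probes disagreed. Timmdc1, an assembly factor of mitochondrial complex I, had 1 passing probe and 1 that was too dim to give a direction. The sequences of their probes are given here because the values of these genes rest on which probe is read, in lower case throughout, from mm9 chromosome 16.
Timmdc1, bright probe, minus strand, chr16:38498991-38499050: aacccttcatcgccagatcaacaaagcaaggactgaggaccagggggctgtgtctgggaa
Timmdc1, dim probe, minus strand, chr16:38522176-38522235: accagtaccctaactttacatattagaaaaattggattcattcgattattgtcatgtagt
Plcxd2, first probe, minus strand, chr16:45960883-45960942: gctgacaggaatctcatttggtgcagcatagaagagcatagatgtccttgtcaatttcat
Plcxd2, second probe, minus strand, chr16:45965174-45965233: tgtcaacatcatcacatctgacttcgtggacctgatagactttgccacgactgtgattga
The bright Timmdc1 probe read 0.19 on both litter 1 arrays and -1.75 and -1.84 in litter 2 (difference -1.99 ± 0.07, SE; limma adjusted p = 0.166). The dim one was not well above background on any array, and its readings were -6.89 and -6.94 in litter 1 and -5.31 and -5.39 in litter 2, from which no direction is taken. The first Plcxd2 probe read -2.95 and -3.38 in litter 1 and -1.14 and -2.04 in litter 2, while the second read -2.66 and -3.40 in litter 1 and -3.46 and -4.46 in litter 2. The direction of Plcxd2 therefore depended on the probe in both genotypes.

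Fam160b1 differed by -1.67 with its brightest probe and by -0.04 and -0.52 with its other passing probes. Cxadr, a junction protein that is also a virus receptor, differed by -1.46 with its brightest probe and by -0.49 and 0.14 with the others. Glo1, the glyoxalase gene, was chosen after its values were seen because its copy number is known to vary between mouse strains. It read 3.12 and 3.23 in litter 1 and 2.42 and 2.52 in litter 2, and its second probe gave the same drop, at -0.74 against -0.71. The 22 measured genes of a list known to differ between inbred strains had a median of -0.17. Of these genes, 12 were lower and 4 higher in both genotypes, against 30.9% and 36.7% of all genes tested. Whether the litters carry different alleles at these genes was not tested.

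Genes that differed between litters lay near each other more often than other genes did. Of the 254 genes with an autosomal position that were at least 1.5-fold apart in both genotypes (74 higher, 0.49%, and 183 lower, 1.21%, when genes without a position are counted too), 105 (41.3%) had another within 1000000 bases. Of the 14731 other genes, 27.3% had such a neighbour. Without the chromosome 14 family the share was 39.3% (96 of 244). The 27.3% of the other genes was not recomputed without that family. Other gene families were not removed from either share, and gene density was not taken into account. The share of such genes was 3.57% on chromosome 14, but 1.72% (9 of 522) without the family. It was 3.05% on chromosome 16 and lowest on chromosome 18, at 0.51%.

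On chromosome 16 there were 3 runs, which are groups of nearby genes at least 1.5-fold apart in both genotypes. At the first, Timmdc1 was lower while its neighbours Poglut1, a glucosyltransferase of Notch, and Arhgap31, a regulator of small GTPases, were higher by 0.64 and 0.73. The run took in 3 of the 4 genes tested in its span. At the second, Tagln3, a transgelin of neurons, and Abhd10, a mitochondrial thioesterase, were higher together with the first probe of Plcxd2. Tagln3 read 0.29 and -0.80 in litter 1 and 1.26 and 0.76 in litter 2, and its probes agreed at 1.27 each. Abhd10 read -1.40 and -1.78 in litter 1 and -0.49 and -0.32 in litter 2. The last run, of Abi3bp, AK033329 and Col8a1, took in 3 of the 12 genes tested in its span, all 3 being lower. These runs were chosen after their values were seen, and other chromosomes held runs too. On chromosome 17 a run took in 8 of the 119 genes tested in its span, in mixed directions. The span of a run starts and ends at its own genes, which raises their share of it. On chromosome 14, far from the takusan family, the run of Cma1, Cma2 and Mcpt4 took in all 3 genes tested in its span. These are proteases of mast cells, which are described with the dermis.

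Genes of the dermis were lower in litter 2 as a group. Among 36 measured genes of fibroblasts and the dermal matrix, 34 were lower in both genotypes and 0 were higher, with a median of -0.49 in the control pair and -0.47 in the cKO pair. Over all 15102 genes the medians were 0.02 and 0.01, and 30.9% were lower in both genotypes. The differences ranged from -1.13 to -0.09, and none of the 36 reached 2-fold in both pairs. By limma 0 passed an adjusted p of 0.05, while 25 (69.4%) had an unadjusted p under 0.05, against 16.4% of all genes tested. In whole skin, fewer cells of a type and less RNA per cell cannot be told apart.

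Col1a2, a chain of type I collagen, read 8.04 and 7.78 in litter 1 and 7.36 and 6.74 in litter 2. Col1a1, the other chain, read 7.89 and 7.75 in litter 1 and 7.37 and 7.02 in litter 2, and its other probes gave larger drops, at -0.94 and -0.85. Both litter 2 animals were below both litter 1 animals for each chain, but the share of all genes tested with such a separation was not counted. Eln, the gene of elastin, read 1.95 and 1.66 in litter 1 and 1.27 and 0.93 in litter 2 (difference -0.71 ± 0.07, SE; limma adjusted p = 0.209). Lum and Fmod, proteoglycans that space collagen fibrils, differed by -0.72 and -0.69. Dpt (dermatopontin, a matrix protein) differed by -0.62 and Mfap4, a microfibril protein, by -1.13. Lox, the enzyme that cross-links collagen and elastin, was at -0.85. Pdgfra, a receptor of fibroblasts, stood at -0.16 in the control pair and -0.13 in the cKO pair. With normexp without the 3 spots below their local background, 15 of the 36 genes were called lower and 0 higher by limma, among them Col1a1, Col1a2, Eln and Lum. Over all genes tested in that setting, 0.947% were called lower and 0.344% higher.

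Mast cell genes were also lower. Both genotypes showed lower values in litter 2 for 7 of the 9 genes and higher values for 1, against 30.9% and 36.7% of all genes tested. The median was -0.51 in the control pair and -0.72 in the cKO pair. Cma1, the gene of a chymase, read 2.97 and 3.29 in litter 1 and 2.29 and 2.60 in litter 2. Mcpt4, another chymase, read 1.5 and 2.25 in litter 1 and 0.62 and 0.95 in litter 2. Cpa3 (mast cell carboxypeptidase) differed by -0.92 and Tpsb2 (a tryptase) by -1.12. For these 4 protease genes the litters did not overlap, but the share of all genes tested without overlap was not counted. Kit, the receptor on which mast cells depend and which melanocytes also carry, was the member that was higher, at 0.23 and 0.16. The normexp setting without the 3 spots called 4 of the 9 lower and 0 higher, against 0.947% lower and 0.344% higher over all genes tested. Under normexp with all spots the median of the list was -0.25.

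Macrophage and dendritic cell genes were lower in the control pair above all. Of 31 measured, 26 were lower in both genotypes and 0 higher, against 30.9% and 36.7% of all genes tested. But the median was -0.50 in the control pair and -0.15 in the cKO pair. Whether the pairs differ was not tested, as each is 1 animal against 1. Aif1, a calcium-binding protein of macrophages, read -1.31 and -1.6 in litter 1 and -1.98 and -2.20 in litter 2. Adgre1, which encodes a surface antigen of macrophages, differed by -0.53 in the control pair and -0.36 in the cKO pair, and C1qa, a complement subunit, by -0.58 and -0.36. Cd207 (langerin), the marker of Langerhans cells in the epidermis, stood at -0.34 in the control pair and 0.52 in the cKO pair. In the processed signal 12 of the 31 (38.7%) had an unadjusted p under 0.05 by limma, against 16.4% of all genes tested. With normexp without the 3 spots 0 were called by limma (lowest adjusted p = 0.057), where 0.947% of all genes tested were called lower.

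**Figure D4:**
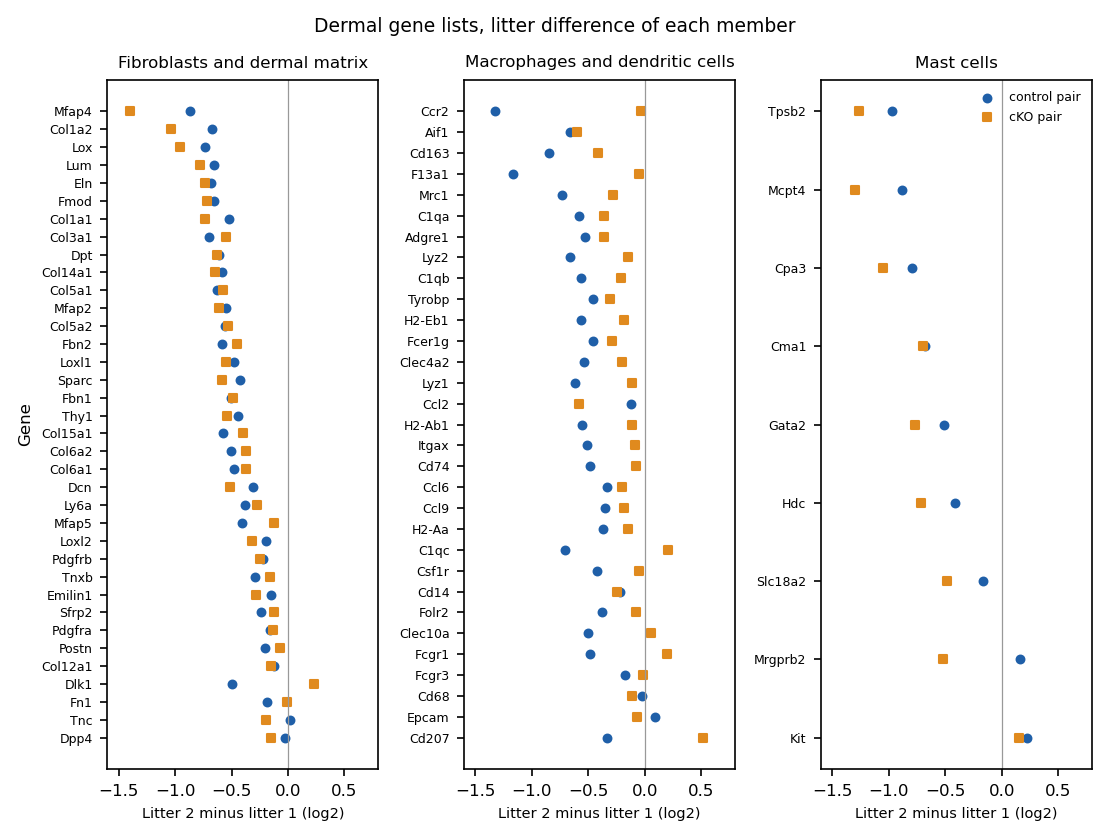
Litter 2 minus litter 1 on the log2 scale (horizontal axis) of every measured member of the lists of fibroblasts and dermal matrix, macrophages and dendritic cells, and mast cells, with circles for the control pair and squares for the cKO pair. Of the 36 fibroblast genes 34 lie left of 0 in both pairs, of the 31 macrophage genes 26, and of the 9 mast cell genes 7.

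Other tissue compartments of the dermis gave smaller or mixed shifts. Their counts stand beside 36.7% higher and 30.9% lower in both genotypes over all genes tested. Of 11 Schwann cell and nerve genes, 8 were lower in both genotypes and 0 higher, with medians of -0.46 and -0.19. S100b, a calcium-binding protein of glia that fat cells also make, differed by -0.67 and -1.08. Of 24 vessel genes, 16 were lower and 3 higher, with a median of -0.18. Lyve1, a hyaluronan receptor of lymphatic vessels and of some macrophages, read -1.17 and -1.21 in litter 1 and -2.06 and -2.08 in litter 2. Rgs5, a gene of pericytes, stood on the other side, at 0.24 and 0.04 in litter 1 and 0.85 in each animal of litter 2. Fat cell genes had a median of -0.05, with 9 higher and 12 lower of 28. The skeletal muscle list differed between the pairs, with a median of -0.30 in the control pair and 0.06 in the cKO pair, and red cell genes had a median of -0.16, with 5 of 8 lower and 1 higher.

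Genes that mark growth around birth were among the lower ones. Over all genes tested, 30.9% were lower and 36.7% higher in both genotypes. Of 21 measured genes known to fall in many organs as a young animal grows, several of them imprinted, 14 were lower and 2 higher in litter 2 in both genotypes, with a median of -0.23. Ndn (necdin) differed by -0.48 and -0.39, Peg3 by -0.38 and -0.46, and Cdkn1c, an inhibitor of the cell cycle, by -0.58 and -0.32. Of 15 acute-phase and antimicrobial genes, 9 were lower and 2 higher, with a median of -0.20. Slpi, a protease inhibitor of epithelia, read -0.44 and -0.27 in litter 1 and -1.17 and -1.10 in litter 2, whereas Camp, the cathelicidin gene, stood at 0.61 and 0.50 in the pairs. Igfbp2, a binding protein of insulin-like growth factors, differed by -0.83 and -1.36. The list of fasting and feeding genes to which it belongs had a median of -0.08 over 23 genes, with 11 lower and 6 higher.

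Regulators of the hair follicle and cell cycle genes leaned the other way, by smaller amounts. Of 33 regulators of the hair matrix and follicle, 21 were higher and 5 lower in both genotypes, against 36.7% and 30.9% of all genes tested. Their median was 0.15 in the control pair and 0.12 in the cKO pair. Edar, the ectodysplasin receptor of developing follicles, read -1.83 and -1.48 in litter 1 and -1.33 and -1.03 in litter 2. Wnt10b, a ligand of the hair growth phase, differed by 0.42 and 0.47, Bmp7 by 0.46 and 0.37, and Hoxc13, a transcription factor of hair keratin genes, by 0.39 and 0.59. Vcan, a proteoglycan of the dermal papilla, was lower, at -0.37 and -0.54. By contrast, 37 hair shaft genes had a median of -0.03, with 7 higher and 18 lower, while the 18 genes of the bulge and its stem cells stood at a median of -0.07, 7 being higher and 8 lower. The hair shaft and bulge lists thus did not share the direction of the regulators. An inner root sheath list, which also covers the companion layer, did share it. Of its 15 measured members, 9 were higher and 0 lower in both genotypes. Its median was 0.09 in the control pair and 0.06 in the cKO pair, but -0.125 over both pairs under normexp with all spots.

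Of 44 cell cycle genes, 32 were higher and 3 lower in both genotypes, against 36.7% and 30.9% of all genes tested. Their median was only 0.10, and under normexp with all spots it was -0.08. Cdc6, which loads the replicative helicase onto DNA, differed by 0.33 and 0.35, and Pcna, the sliding clamp of DNA replication, by 0.22 and 0.26. Mcm3, a subunit of that helicase, was lower, at -0.41 and -0.35. Of 20 heat shock genes, 15 were higher and 0 lower, with a median of 0.11. Hsph1, a cofactor of the chaperone HSP70, read 3.05 and 3.04 in litter 1 and 3.51 and 3.63 in litter 2, and Hspa8, the constitutive HSP70, differed by 0.31 and 0.39. Of 45 ribosomal protein genes 33 were higher and 5 lower, with a median of 0.07. In the epidermis, 16 basal keratinocyte genes had a median of 0.02, and of 17 suprabasal genes 12 were higher and 1 lower, with a median of 0.12. Under normexp with all spots the medians turned to -0.14 for heat shock, -0.23 for ribosomal protein and -0.15 for suprabasal genes. None of these lists held a gene at least 2-fold apart in both pairs.

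**Figure D5:**
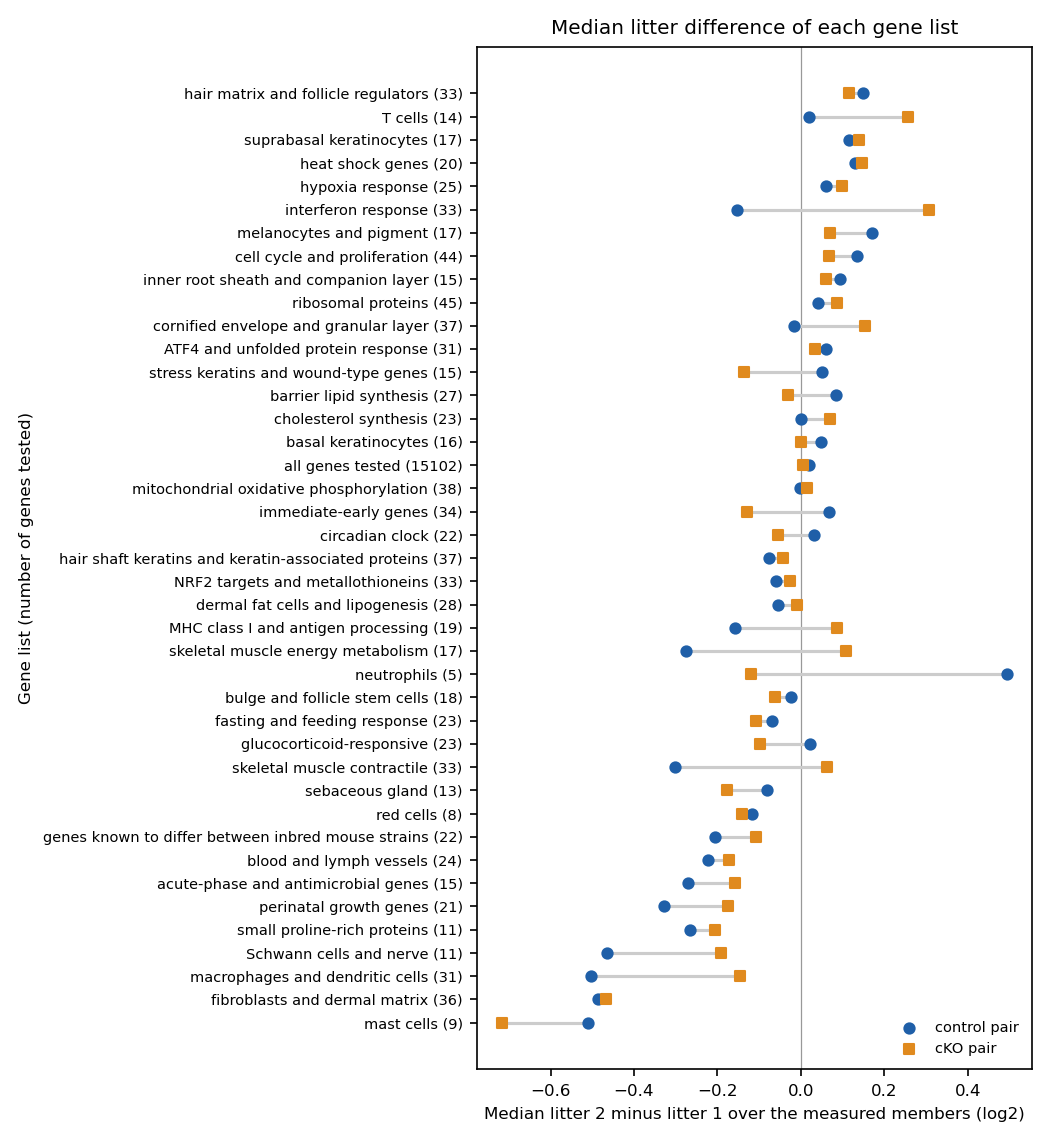
Median litter 2 minus litter 1 on the log2 scale (horizontal axis) over the measured members of each gene list with at least 5 of them, with circles for the control pair and squares for the cKO pair and the number of genes in brackets. Mast cell and fibroblast genes lie far left in both pairs, at -0.51 and -0.72 and at -0.49 and -0.47, while muscle, interferon and neutrophil genes have medians on opposite sides of 0.

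Some large differences rested on 1 animal. 5830417I10Rik had the largest fitted difference of all genes, at 5.05, but read 1.66 and 2.81 in the controls of litters 1 and 2, 1.89 in litter 2 cKO and -7.04 in litter 1 cKO, and its second probe showed the same pattern. It was thus not well above background in 1 animal and present in the other 3. The gene is still counted among the 54 genes at least 2-fold apart in both genotypes, and among the 21 of them higher in litter 2. Acoxl, an acyl-CoA oxidase-like gene, read 0.58 and 0.17 in litter 1, -0.75 in litter 2 cKO and -5.31 in litter 2 control. Tyro3 and Taf3 stood at 5.66 and 10.3 in the cKO pair and at 0.21 and -0.51 in the control pair. Their spots are neighbours on the array, and on litter 2 cKO the local background was 1020 and 392 beside them, against an array median of 30.5. Other probes of both genes that were well above background on all 4 arrays differed by at most 0.58 in the cKO pair. These genes were chosen after their values were seen.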

How the data were processed

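Total RNA of each biopsy was labelled with Cy3 and hybridised to 1 Agilent whole mouse genome array, per the labels' protocols. The deposited scanner files hold the authors' intensity values. Images were read with Agilent Feature Extraction, of version 10.5 per the submitters' processing notes and 10.7.3.1 per the file headers. The background-subtracted, detrended processed signal was used. Its log2 was taken and the 75th percentile of an array's gene spots subtracted, without control spots and spots flagged as outliers (51 to 66 per array). The authors' series table holds deposited log2 values, which followed these with slope 1.0 once each probe was centred on its median (column medians -0.08 to 0.08), and served as an alternative.

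Spots of a probe were averaged. Probes on chromosomes X and Y (1511) were left out, and a probe was kept if both animals of either litter gave a signal well above background, which 21687 of 41174 met. The probe with the highest mean stood for a gene. Gene names came from accessions matched to RefSeq genes of GRCm38.p6 for 26690 probes, from symbols for 5189, from synonyms for 952 and from the files for 8343. Coordinates are those of the files (mm9).

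The litter contrast was fitted in R 4.3.3 with limma 3.58.1 (genotype as covariate, lmFit, then eBayes, two-sided, Benjamini-Hochberg over all 15102 genes, threshold 0.05). Nothing says how far the spread between these 4 animals stands for other litters. The model was tested on simulated data for this contrast, with 200 of 15102 genes changed in each of 20 simulations. Noise was drawn independently for each gene from the fitted prior. In these data 17.5% of the 2-fold and 86.4% of the 4-fold changes were recovered. The simulations gave a mean of 111.6 calls, against 0 in the real data. The recovered shares therefore hold for the simulated data and do not carry over to the real contrast. The array number limits the precision.

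Named genes were the 15 higher and 15 lower in litter 2 whose smaller difference of both genotypes was largest, passing over clone and predicted names, plus up to 4 members of each list with the smallest p. Any other gene was named with its values in view. The comparison, members and lists were chosen with earlier results of these data known. Alternatives were quantile normalization, normexp (offset 50), other filters, probes instead of genes, other eBayes settings and leaving out each array.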

Additional observations from a re-analysis of the deposited data

Results flagged for a closer look

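Some gene lists had medians of opposite sign in the genotypes. Each median compares 1 animal with 1 animal, and the difference between the pairs was not tested. Skeletal muscle contractile genes had a median litter difference of -0.30 in the control pair and 0.0627 in the cKO pair, and genes of muscle energy metabolism of -0.28 and 0.11. Interferon response genes stood at -0.15 and 0.31, and MHC class I and antigen processing genes at -0.16 and 0.0854. Neutrophil genes, of which only 5 were measured, stood at 0.49 and -0.12. Immediate-early genes stood at 0.0661 and -0.13, and stress keratins and wound-type genes at 0.0501 and -0.14.

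Among probes outside the comparison, Xist read 2.37 in litter 2 cKO and was not well above background on the other 3 arrays. The cKO pair therefore also differs in sex.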

How the results depend on the processing

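No paired analysis was possible because litter is the contrast itself, and genotype already is a term of the model. The count of called genes was 0 in most settings, but 3 without the genotype term, 17 with normexp, 195 with normexp without the 3 spots below their local background (chosen after the data were seen), and from 0 to 2 when 1 array was left out. The 2 genes, called without litter 2 control, were Tyro3 and Taf3. In the normexp setting with all spots, the prior had infinite weight, so all genes shared 1 variance. The count of genes at least 2-fold apart in both genotypes (54) was 21 with normexp, 19 without the 3 spots, 124 with no filter on dim probes, where all genes shifted by a median of 0.10, 24 with signal well above background on all arrays, 82 when probes were counted, 257 at 1.5-fold and 44 without the chromosome 14 family. It was 173 to 191 with 1 array left out, since only 1 pair then sets it. Under normexp the sign turned for Leap2 (0.051), Abca6 (0.69), Prdm16 (0.13), Olr1 (0.52), Prss41 (0.68) and Idi2 (0.59), and the median of the cell cycle list was -0.075. No other of the 407 values of named genes under an alternative changed sign, and 20 passed the threshold, 19 of them under normexp without the 3 spots. List medians were computed under the same settings, and 56 of 492 values had the opposite sign to the main one, in 25 of 41 lists. In that comparison the bulge list held 19 genes with a main median of -0.003, unlike the 18 genes and median of -0.07 given above. The tally therefore does not describe the bulge median given above. The fibroblast median was -0.51 with normexp, -0.447 without the 3 spots, -0.44 with the mean of a gene's probes and -0.49 to -0.47 with 1 array left out. The hair matrix median was 0.19, 0.107 and 0.12 in the first 3 of these settings, and 0.12 to 0.15 with 1 array left out, and the mast cell median -0.25 with normexp. The cause was not tested beyond the 3 spots.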
